A study of Mus musculus with 35 samples.

Results

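Transcript levels in brown adipose tissue (BAT), the heat-producing fat, were compared between control mice and mice lacking the histone methyltransferases Suv420h1 and Suv420h2 (Suv420h dKO), all aged 4 weeks and kept on normal diet. These libraries are the first of 2 experiments and make up 15 of the series' 35 libraries, chosen by their titles, with 9 control and 6 knockout libraries. By their labels, 4 control libraries came from males and 5 from females, and 1 knockout library came from a male and 5 from females. The sources used here do not give the strain, the driver of the deletion, the deleted part of either gene or whether each replicate is its own animal, and the p-values can therefore speak only of the spread among these libraries, part of which may be technical. The count columns fall into a set of columns 1 to 6, with 4 control and 2 knockout libraries, and a set of columns 7 to 15, with 5 control and 4 knockout libraries. The set was a term in the model of every comparison of genotype at 4 weeks unless another model is named. For comparison, 20 libraries of females aged 21 weeks, 5 per group, held control and knockout mice on normal diet or on a diet with 45 kJ% fat for 14 weeks.

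Suv420h1 and Suv420h2 turn monomethylated lysine 20 of histone H4 (H4K20) into its di- and trimethylated forms, a mark of compact chromatin that is also known from DNA repair and chromosome maintenance. Brown fat burns fatty acids in mitochondria and releases the energy as heat through the uncoupling protein Ucp1. The nuclear receptor PPAR-gamma, encoded by Pparg, drives the formation of fat cells and is named in the series' title. The transcripts of Suv420h1 and Suv420h2 at 4 weeks were not analysed here.

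Each library was made with a 3′ tag kit, and the count of a gene is the number of such tags. Totals ranged from 3069035 to 8140213 counts per library. Mitochondrially encoded transcripts took 27.4% to 30.1% of the counts in columns 1 to 6 and 14.1% to 20.4% in columns 7 to 15. Erythroid markers, 5 of 7 in the table, summed to 3870 to 11300 CPM in columns 1 to 6 and 619 to 1650 CPM in columns 7 to 15. All libraries of columns 1 to 6 but knockout 2 are labelled male and all of columns 7 to 15 female, so set and labelled sex cannot be told apart in most libraries. Xist, the RNA that coats the inactive X chromosome of females, went against the labelled sex in control 6 (236 CPM, labelled male) and knockout 2 (1.57 CPM, labelled female). Control 1 stood apart from the other libraries once the set was removed, and had the lowest total. The tissue label fits its markers: 35 of 41 genes of the thermogenic programme were in the table, with a summed level of 17200 to 45000 CPM. Skeletal muscle markers, 18 of 27 in the table, summed to 42.8 to 2790 CPM in knockout and 110 to 2760 CPM in control libraries, and none of the 18 was called. None of 9 thymus markers and 2 of 19 T and B cell markers were in the table. In pieces of tissue, fewer cells of a type and less RNA per cell cannot be told apart.

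Loss of both enzymes went with many small differences rather than a few large ones. Of 10366 genes tested, 218 (2.1%) were called at an adjusted p below 0.05, 135 higher in the knockout (1.3%) and 83 lower (0.801%). Fold changes are log2 values of knockout over control, with 1 standard error (SE). Of the genes that rose, 8 changed by more than 2, 20 by 1 to 2, 81 by 0.5 to 1 and 26 by less, with a median of 0.62. Of those that fell, 4, 12, 58 and 9 stood in the same classes, with a median of -0.72. The genes that rose were the more abundant, with a median level of 65.9 CPM against 17.4 CPM for those that fell. Without the adjustment, 1051 genes (10.1%) were higher and 956 (9.22%) lower at p below 0.05. All knockout libraries lay above all control libraries for 25 of the 135 genes that rose, and below them for 17 of the 83 that fell. Over all genes tested the groups did not overlap in 0.579%. Within each set taken separately all knockout libraries lay above control for 77 of the genes that rose and below it for 41 of those that fell, against 129 (1.24%) and 74 (0.714%) of all genes tested. At the threshold, Abhd16a, Ocrl and Fam126b were just inside (adjusted p = 0.0496, 0.0496 and 0.0499) and Slc17a5, Vps33b and Syt12 just outside (0.0503, 0.0506 and 0.0506). Leaving out 1 library moved the count of 218 to 93 (knockout 1), 104 (knockout 4), 133 (knockout 6), 113 (control 5), 99 (control 7) or 81 (control 8). With no term for the set, 16 genes were called.

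**Figure D1:**
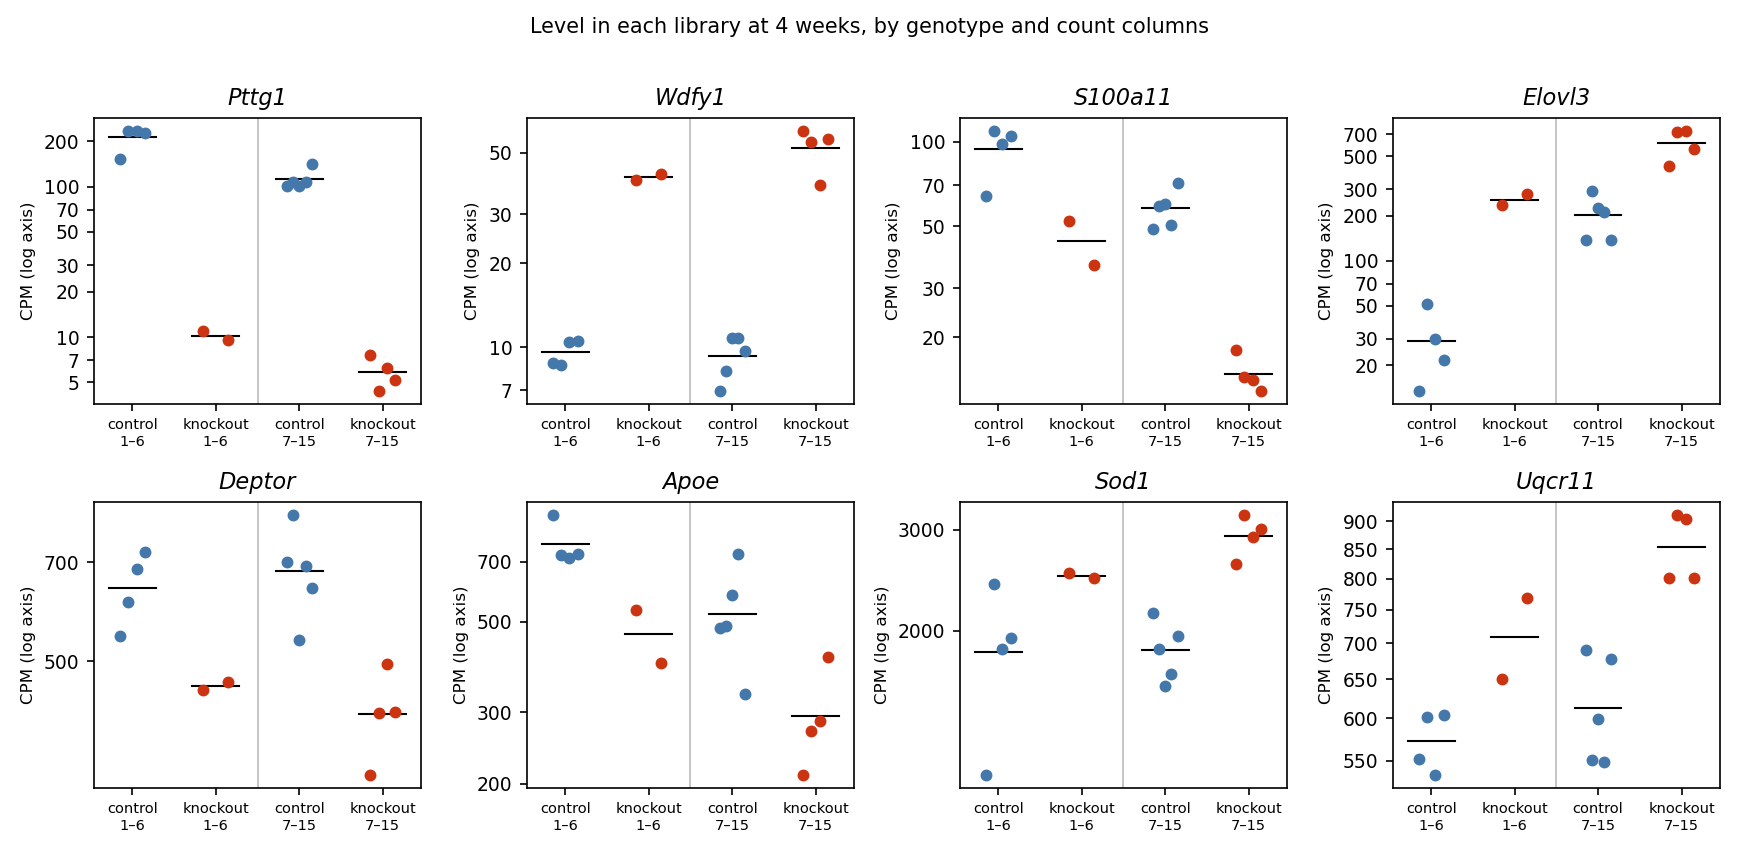
Level of 8 genes in each library (CPM, log axis) by genotype and count columns; points are libraries, blue for control and red for knockout, and bars are means. Pttg1 lies at 100 to 235 CPM in controls and 4.40 to 10.97 CPM in knockouts, and Elovl3 of the knockout lies above control within each set while the sets themselves differ in level.

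Among genes that rose, the smallest adjusted p-values belonged to an endosomal adaptor, a ribosomal protein pseudogene, a sialyltransferase and several chaperone genes. Wdfy1, a FYVE domain protein of early endosomes (chromosome 1, 79702262 to 79776143, GRCm38, overlapped by Mrpl44 on the other strand), was at 6.97, 9.65 and 10.8 CPM (lowest, median, highest) in control and 38.1, 48.3 and 60.0 CPM in knockouts. No library of one genotype came near the other. Its fold change was 2.34 ± 0.13 SE (adjusted p = 5.81e-10), with 2.09 in columns 1 to 6 and 2.49 in columns 7 to 15. St6galnac5, which adds sialic acid to glycolipids (chromosome 3, 152817081 to 152982246), was at 1.99, 2.81 and 4.64 CPM in controls and 5.87, 10.6 and 18.7 CPM in knockouts. The groups did not overlap, with a fold change of 1.87 ± 0.22 SE (adjusted p = 6.08e-05). Akr1c13, an aldo-keto reductase (chromosome 13, 4191150 to 4205596), likewise did not overlap, at 1.49, 3.76 and 5.004 CPM in controls and 5.48, 9.32 and 12.4 CPM in knockouts. It rose by 1.45 ± 0.24 SE (adjusted p = 0.00521).

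Elovl3, an elongase of very long chain fatty acids that is typical of brown fat, differed in level between sets as well as between genotypes. In columns 1 to 6 it was at 13.4 to 50.9 CPM in controls and at 235 and 277 CPM in the 2 knockout libraries. In columns 7 to 15 it was at 137 to 292 CPM in controls and 430 to 739 CPM in knockouts. Knockout libraries lay above control libraries within each set, but those of columns 1 to 6 lay inside the control range of columns 7 to 15. The fold change was 2.20 ± 0.31 SE (adjusted p = 0.00426), with 3.12 in columns 1 to 6 and 1.61 in columns 7 to 15. Tesc, the calcium-binding protein tescalcin, also lay above control within each set and overlapped it between sets, with 1.46 ± 0.24 SE (adjusted p = 0.00644). Its fold change was 2.15 in columns 1 to 6 and 1.11 in columns 7 to 15. Comtd1, a methyltransferase-like protein overlapped by Vdac2 on the other strand, rose by 0.85 ± 0.14 SE (adjusted p = 0.00426). The ribosomal protein paralogue Rpl39l rose by 1.42 ± 0.25 SE (adjusted p = 0.0066), again without overlap within each set.

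Rps3a3 rose by 4.55 ± 0.30 SE (adjusted p = 8.78e-08), from 0.166, 0.429 and 12.7 CPM in control to 16.0, 28.8 and 153 CPM in knockouts. It is annotated as a processed pseudogene of the small-subunit ribosomal protein gene Rps3a1, lying within Pde4d (chromosome 13, 108670603 to 108671397). It matches the Rps3a1 transcript at 786 of 795 bases (98.9%). Rps3a1 itself (chromosome 3, 86137940 to 86142702) fell by 1.18 on the log2 scale (SE 0.29, adjusted p = 0.0480). The sources used here do not say how reads were divided between 2 copies that differ at 9 bases, so both values are uncertain.

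The gene with the smallest adjusted p of all was Pttg1 (chromosome 11, 43420250 to 43426251). It encodes securin, which restrains the separation of sister chromatids until anaphase. Pttg1 stood at 100, 142 and 235 CPM in controls and 4.40, 6.95 and 10.97 CPM in knockouts. Every knockout library lay far below every control library, and the fold change was -4.29 ± 0.16 SE (adjusted p = 2.99e-13), with -4.36 and -4.24 in the 2 sets. S100a11, a calcium-binding S100 protein (chromosome 3, 93520488 to 93526287), was at 48.8, 64.1 and 110 CPM in controls and 12.9, 16.2 and 52.1 CPM in knockouts. It fell by 1.61 (SE 0.17, adjusted p = 1.93e-05), and its 2 highest knockout libraries were those of columns 1 to 6, of which 1 lay inside the control range. Its fold change was -1.08 in columns 1 to 6 and -1.96 in columns 7 to 15. S100a10, the partner of annexin A2, starts 28.8 kb away and rose by 0.62 ± 0.13 SE (adjusted p = 0.0204).

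Other genes with the smallest adjusted p among those that fell differed by less. Deptor, an inhibitor of the growth kinase mTOR (chromosome 15, 55112317 to 55259271), was at 538, 683 and 823 CPM in controls and 340, 437 and 495 CPM in knockouts. The groups did not overlap although the fold change was only -0.62 ± 0.12 SE (adjusted p = 0.0109). Apoe, the lipid-carrying apolipoprotein E (chromosome 7, 19696109 to 19699188), was at 332, 717 and 914 CPM in controls and 210, 340 and 535 CPM in knockouts. Those ranges overlapped, and its fold change was -0.80 ± 0.16 SE (adjusted p = 0.0162). Ide, which degrades insulin (chromosome 19, 37268743 to 37337852), fell by 0.72 (SE 0.14, adjusted p = 0.0126). Its groups overlapped, at 72.2 to 288 CPM in controls and 69.7 to 132 CPM in knockouts, and its fold change was -0.41 in columns 1 to 6 and -0.91 in columns 7 to 15. The groups did not overlap for Serf1 (-0.84), Zbtb4, a reader of methylated DNA (-0.65), the vesicle protein Tpd52 (-1.23), Alkbh6 (-0.91) and the folate hydrolase Ggh (-1.16). Commd4 (-0.58) and Arap1, which inactivates Arf GTPases (-0.82), overlapped between groups. These 7 adjusted p-values ranged from 0.00936 to 0.0162. Alkbh6 lost its call without knockout 1 (adjusted p = 0.0533).

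The next genes are the most abundant of those called with an absolute log2 fold change of at most 1. Sod1, the cytosolic superoxide dismutase (chromosome 16, 90220754 to 90226329, with Scaf4 on the other strand), was at 1123, 1864 and 2415 CPM in controls and 2472, 2763 and 3191 CPM in knockouts. The groups did not overlap, with a fold change of 0.58 ± 0.13 SE (adjusted p = 0.0279). Acads, the short-chain acyl-CoA dehydrogenase of fatty acid oxidation, was at 736, 1176 and 1972 CPM in controls and 1027, 2377 and 2753 CPM in knockouts. Knockout lay above control only within each set, with 0.61 ± 0.13 SE (adjusted p = 0.0179). Uqcr11, a subunit of respiratory complex III (chromosome 10, 80402997 to 80406830), was at 534, 599 and 691 CPM in controls and 650, 801 and 912 CPM in knockouts. It rose by 0.41 ± 0.10 SE (adjusted p = 0.0307). Chchd2, a protein of the mitochondrial intermembrane space, rose by 0.51 ± 0.13 SE (adjusted p = 0.0371).

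The other abundant genes that rose were Cdo1, which oxidises cysteine (0.56), the mitochondrial serine carrier Sfxn1 (0.62), Ndrg2 (0.61), the small GTPase Rhoq (0.44), the nucleotide hydrolase Hint1 (0.49) and the coenzyme A synthase Coasy (0.49). Their adjusted p-values ranged from 0.0223 to 0.0374, and the groups did not overlap for Rhoq. Abundant genes that fell were, beside Deptor, Apoe and Ide, the glycolytic isomerase Gpi1 (-0.51), the glucocorticoid receptor Nr3c1 (-0.42), the ESCRT partner Pdcd6ip (-0.41), Plekho1 (-0.53), the lysosomal peptidase Tpp1 (-0.65), the zinc transporter Slc39a1 (-0.52) and the proteasome activator subunit Psme1 (-0.56). The adjusted p-values of these 7 ranged from 0.0185 to 0.0480, and the groups did not overlap for Psme1. None of the abundant genes named in this paragraph, and none of Sod1, Acads, Uqcr11 and Chchd2, was called in all 15 fits that left out 1 library, except Deptor, Apoe and Ide. Their highest adjusted p was 0.106, for Nr3c1 without knockout 1.

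Chaperones and the cofactors of HSP90 held 8 called genes, all higher in the knockout, of which Hspb8, Hspe1, Ahsa1 and Ahsa2 were called in all 15 fits that left out 1 library. Chaperones fold other proteins, and many of their genes carry heat shock elements, inverted repeats of the letters GAA bound by heat shock factors. The promoter windows of Hspe1 and Hspb8, the 2 genes of this group whose window holds such repeats, and that of Stip1, which holds none, run from 250 bases before to 50 bases after the start of the RefSeq transcript (GRCm38.p6). Capitals mark matches, on either strand, to GAANNTTC, to TTCNNGAA or to a longer motif of 3 units, TTC, GAA and TTC with 2 free bases between units, which overlaps the shorter ones.
Hspe1, chr1:55087898-55088197, plus strand: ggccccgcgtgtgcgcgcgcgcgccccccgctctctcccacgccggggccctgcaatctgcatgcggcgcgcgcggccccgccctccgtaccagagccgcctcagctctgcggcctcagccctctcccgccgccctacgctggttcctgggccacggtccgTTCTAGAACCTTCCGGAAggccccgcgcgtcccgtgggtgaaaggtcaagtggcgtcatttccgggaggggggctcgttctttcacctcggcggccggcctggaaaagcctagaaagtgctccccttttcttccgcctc
Hspb8, chr5:116422815-116423114, minus strand: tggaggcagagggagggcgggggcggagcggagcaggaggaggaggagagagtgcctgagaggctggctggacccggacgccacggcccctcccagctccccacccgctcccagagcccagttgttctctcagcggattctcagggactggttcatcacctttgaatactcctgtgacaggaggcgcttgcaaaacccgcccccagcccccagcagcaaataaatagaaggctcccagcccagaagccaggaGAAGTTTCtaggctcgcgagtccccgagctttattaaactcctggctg
Stip1, chr19:7039977-7040276, minus strand: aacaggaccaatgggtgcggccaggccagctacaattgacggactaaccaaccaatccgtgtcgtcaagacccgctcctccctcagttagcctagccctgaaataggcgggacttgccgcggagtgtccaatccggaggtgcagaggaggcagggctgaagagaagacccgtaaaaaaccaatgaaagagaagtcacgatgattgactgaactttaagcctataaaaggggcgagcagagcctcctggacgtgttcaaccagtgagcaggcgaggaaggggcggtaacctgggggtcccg
The longer motif occurs in 0.603% of 32851 mouse promoter windows and 0.528% of the 10223 windows of tested genes, and it starts at -89 and -84 in that of Hspe1. The shorter motifs occur in 7.86% and 8.52% of all windows, and in 5.7% and 6.9% of the windows of tested genes. Among genes with a window, either shorter motif occurs in 14.0% of those tested, 16.2% of those called higher and 2 of these 8. The windows of Dnajb1, Dnajb2, Ahsa1, Ahsa2, Stip1 and Ptges3 hold none of these motifs, which says only that these letters are not in these windows.

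Hspb8, a small heat shock protein (chromosome 5, 116408491 to 116422864), was at 43.5, 196 and 307 CPM in controls and 228, 603 and 761 CPM in knockouts. Knockout lay above control within each set, and the fold change was 1.41 ± 0.19 SE (adjusted p = 4.67e-04). Hspe1, the mitochondrial co-chaperonin (chromosome 1, 55088132 to 55091307, overlapping Hspd1 on the other strand), was at 165, 243 and 303 CPM in controls and 360, 403 and 445 CPM in knockouts. The groups did not overlap, with 0.74 ± 0.12 SE (adjusted p = 0.00419). Ahsa2 and Ahsa1, which stimulate the ATPase of HSP90, rose by 0.77 ± 0.12 SE (adjusted p = 0.00341) and 0.66 ± 0.13 SE (adjusted p = 0.0148). Ahsa2 was at 14.7, 16.1 and 20.2 CPM in controls and 22.1, 29.6 and 38.0 CPM in knockouts, without overlap. Stip1, which links HSP70 to HSP90, rose by 0.71 ± 0.16 SE (adjusted p = 0.0225) and the co-chaperone p23, Ptges3, by 0.53 ± 0.12 SE (adjusted p = 0.0223). The J-domain proteins Dnajb1 and Dnajb2 rose by 0.83 ± 0.20 SE (adjusted p = 0.0374) and 0.53 ± 0.13 SE (adjusted p = 0.0300). Dnajb2 was at 1.72 to 43.7 CPM in controls and 2.59 to 60.3 CPM in knockouts, with all values under 5 in columns 1 to 6. With 1 library left out, Dnajb1 was called in 7 of 15 fits (highest adjusted p = 0.113, without knockout 1) and Dnajb2 in 8 (0.0749, without control 8). Stip1 was called in 11 (highest adjusted p = 0.0589, without knockout 4) and Ptges3 in 12 (0.0519, without control 8).

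**Figure D2:**
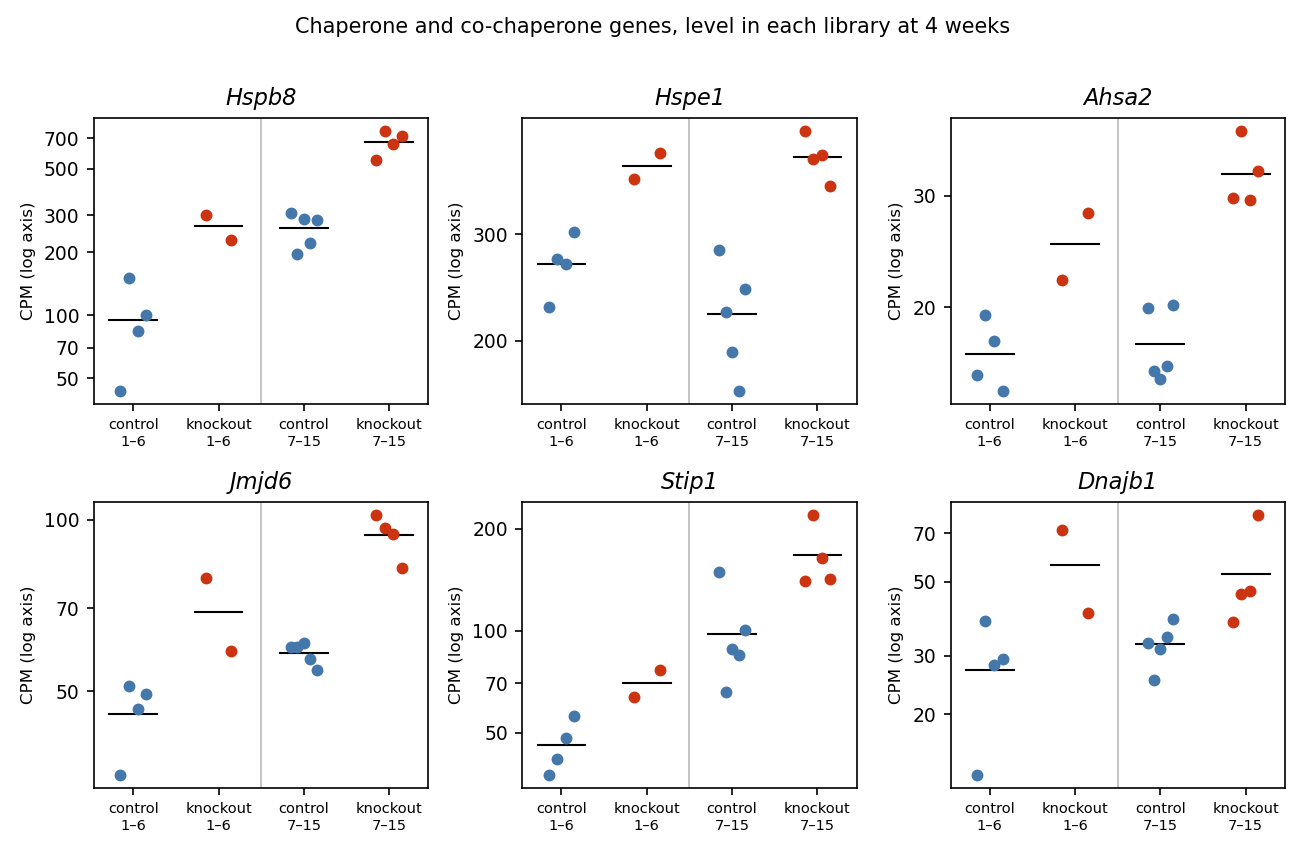
Level of 6 genes in each library (CPM, log axis) by genotype and count columns; points are libraries and bars are means. Hspe1 and Ahsa2 of the knockout lie above all control libraries, while Stip1 reaches 149 CPM in 1 control library.

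Both gene lists behind that group were drawn up after values had been seen and get no test. Of 56 heat shock and J-domain genes, 33 had a positive and 23 a negative fold change, with a median of 0.11, and 4 were called (7.14%, against 2.1% of all genes). Of 20 HSP90 co-chaperone genes, 15 were positive, with a median of 0.33, and 4 were called (20%). The median of all genes was -0.02. The major chaperones were not called. Hspa8, the constitutive HSP70, had 0.78 (adjusted p = 0.0680), Hsp90aa1 0.63 (adjusted p = 0.0849), Hsp90ab1 0.42 (adjusted p = 0.125) and Hspd1, the chaperonin partner of Hspe1, 0.43 (adjusted p = 0.0535). Jmjd6, a hydroxylase of nuclear proteins (chromosome 11, 116837432 to 116843449, overlapped by Mettl23 on the other strand), was named by its p-value and is in neither list. It rose by 0.65 ± 0.10 SE (adjusted p = 0.00367), from 35.7, 54.5 and 60.7 CPM to 58.7, 88.2 and 102 CPM, with the lowest knockout library, knockout 2, inside the control range. In the endoplasmic reticulum, the chaperone Hyou1 fell by 0.61 (SE 0.15, adjusted p = 0.0364).

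Of the genes that define brown fat, Elovl3 alone of 35 thermogenic genes was called (2.86%, against 2.1% of all genes). Of the 35, 22 were positive and 13 negative, with a median of 0.10. Ucp1 was at 4825, 7848 and 11660 CPM in controls and 6309, 8459 and 17580 CPM in knockouts, the highest being knockout 5. Those ranges overlapped widely, and the fold change was 0.16 ± 0.20 SE (adjusted p = 0.709). Cidea, a lipid droplet protein, had 0.47 ± 0.15 SE (adjusted p = 0.0869), Ppargc1a, the coactivator of mitochondrial genes, 0.60 ± 0.30 SE (adjusted p = 0.282) and Dio2, which activates thyroid hormone, 0.71 ± 0.43 SE (adjusted p = 0.387). Leptin, Lep, had -0.29 ± 0.65 SE (adjusted p = 0.850). Pparg was at 35.2, 39.2 and 196 CPM in controls and 18.97, 36.5 and 48.5 CPM in knockouts, with -0.46 ± 0.37 SE (adjusted p = 0.522). The 196 CPM came from control 1, and the next control library was at 41.7 CPM. Of 40 genes of PPAR-gamma and fat cell differentiation, 25 were positive (median 0.11). Its called member (2.5% of the list) was Rxra, the partner receptor of PPAR-gamma (0.50 ± 0.12 SE, adjusted p = 0.0314).

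Peroxisomal lipid enzymes held 4 called genes of 34 (11.8%, against 2.1% of all genes), all higher. Their list was drawn up after values had been seen. Ech1, a dienoyl-CoA isomerase, rose by 0.75 ± 0.15 SE (adjusted p = 0.0124), the thiolase Acaa1b by 0.79 ± 0.16 SE (adjusted p = 0.0130), the carbonyl reductase Dhrs4 by 0.73 ± 0.13 SE (adjusted p = 0.00917) and the malonyl-CoA decarboxylase Mlycd by 0.58 ± 0.12 SE (adjusted p = 0.0165). Dhrs4 was at 129, 140 and 233 CPM in controls and 198, 245 and 355 CPM in knockouts. In all, 21 of the 34 were positive (median 0.12). Of 28 genes of mitochondrial fatty acid oxidation, Acads was the called one (3.57%, against 2.1% of all genes). Of 22 genes of branched chain amino acid breakdown it was Hsd17b10 (4.55% of the list), with 0.61 ± 0.16 SE (adjusted p = 0.0486). Knockout 1 was its highest library at 222 CPM, and without knockout 1 its adjusted p was 0.174.

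Nuclear-encoded oxidative phosphorylation genes leaned upward by small amounts, with 61 of 80 positive and a median of 0.15. Over all genes tested, 4891 of 10366 were positive. At an unadjusted p below 0.05, 25 of the 80 were higher and 1 lower, against 10.1% and 9.22% of all genes. Uqcr11 was the called member (1.25%, against 2.1% of all genes). The median of the list was 0.06 in columns 1 to 6 and 0.23 in columns 7 to 15. At 21 weeks it was 0.18 on normal and -0.03 on high fat diet. Proteasome subunits had 36 of 46 positive (median 0.14), with Psma7 of the core particle higher (0.58 ± 0.12 SE, adjusted p = 0.0136; 120, 192 and 223 CPM against 252, 279 and 302 CPM) and the activator Psme1 lower. Cytosolic ribosomal proteins had 60 of 82 positive (median 0.13; -0.02 in columns 1 to 6 and 0.22 in columns 7 to 15), and mitochondrial ribosomal proteins 47 of 74 (median 0.07), none of them called. The 18 mitochondrially encoded genes had a median of 0.18 with none called. The proteasome and ribosome lists and that of mitochondrially encoded genes go by gene symbol and were drawn up after values had been seen.

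Among other pathways a list rarely held more than 1 or 2 called genes, where 2.1% of all genes were called. Cholesterol synthesis and uptake had 22 of 25 genes positive, with a median of 0.32 (0.32 and 0.33 in the 2 sets). Lipogenesis and its NADPH supply had 18 of 29 positive, with medians of opposite sign in columns 1 to 6 (0.35) and columns 7 to 15 (-0.12), and Pgls of the pentose phosphate pathway rose (0.48 ± 0.12 SE, adjusted p = 0.0474). Glycolysis and glycogen had 20 of 31 negative, again with set medians of opposite sign (0.08 and -0.18), and Gpi1 fell. Antioxidant and glutathione genes had 3 called of 43 (6.98%, against 2.1% of all genes). Sod1 and Srxn1, which repairs oxidised peroxiredoxin (0.59 ± 0.14 SE, adjusted p = 0.0356), rose and the glutathione transferase Gstm5 fell (-0.65 ± 0.15 SE, adjusted p = 0.0259). Gstm7, its neighbour at 27.6 kb, rose by 0.75. No gene of the lists for the citric acid cycle (30 genes), adrenergic signalling (31), insulin and mTOR signalling (30), thyroid hormone handling (14) or immediate early genes (18) was called. At the 2.1% of all genes, lists of this length would hold few or no called genes.

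Autophagy genes moved both ways. The kinase Ulk1, which starts autophagy (0.47 ± 0.11 SE, adjusted p = 0.0338), and Map1lc3b, the membrane-bound marker of autophagosomes (0.47 ± 0.11 SE, adjusted p = 0.0240), rose. Atg7, the enzyme that activates its conjugation, fell (-0.68 ± 0.14 SE, adjusted p = 0.0188). With Wdfy1, the list of vesicle, lysosome and autophagy genes held 4 called of 46 (8.7%, against 2.1% of all genes). N-glycosylation also went both ways. The phosphomannomutase Pmm1 rose by 0.74 ± 0.15 SE (adjusted p = 0.0159) and Gfpt2, which feeds the hexosamine pathway, by 0.79 ± 0.19 SE (adjusted p = 0.0309). The oligosaccharyltransferase subunit Stt3a fell by 0.62 (SE 0.14, adjusted p = 0.0231) and the glucosyltransferase Alg6 by 0.90 (SE 0.22, adjusted p = 0.0338). Those are 4 called of 33 (12.1%, against 2.1% of all genes), in a list drawn up after values had been seen.

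Lists tied to chromatin, the cell cycle and the clock held 0 to 2 called genes each, at shares of 0% to 6.67% against 2.1% of all genes. Of 39 genes of H4K20 methylation and heterochromatin 0 were called by edgeR's test, with 4 higher and 5 lower at an unadjusted p below 0.05 and a median of -0.05. Of 38 genes of the cell cycle and chromosome segregation Pttg1 was the called one, with 25 negative. Of 35 p53 targets, Cdkn1a, the inhibitor p21 of cyclin-dependent kinases (chromosome 17, 29090976 to 29100727), rose by 1.31 ± 0.23 SE (adjusted p = 0.00917). It was at 35.3, 68.6 and 108.1 CPM in controls and 108.9, 145 and 229 CPM in knockouts, so that the groups met but did not overlap. Among 30 imprinted genes, the histone chaperone relative Nap1l5 fell by 2.13 (SE 0.36, adjusted p = 0.00567), from 2.15, 3.22 and 8.78 CPM to 0.288, 0.858 and 1.75 CPM. Nap1l4 rose by 0.44 ± 0.10 SE (adjusted p = 0.0270). Nap1l5 lies within Herc3 on the other strand. Of 19 clock genes, the repressor Nfil3 rose by 0.95 ± 0.24 SE (adjusted p = 0.0478; 0.192 without knockout 1).

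Interferon-stimulated genes had mostly negative fold changes, larger in size in one set of libraries. Of 41 genes, 39 had a negative fold change, with a median of -0.40 against -0.02 over all genes. That median was -0.82 in columns 1 to 6 and -0.10 in columns 7 to 15. Only Rnf213, a large ubiquitin ligase, was called lower (-0.83 ± 0.21 SE, adjusted p = 0.0450). Ifi27l2a, an interferon-inducible mitochondrial protein, was called higher, at 57.5, 97.1 and 206 CPM in controls and 147, 233 and 672 CPM in knockouts (1.36 ± 0.22 SE, adjusted p = 0.0066). Together with Rnf213 that is 4.88% of the list, against 2.1% of all genes. The myeloid transcription factor Irf8 fell by 1.14 (SE 0.28, adjusted p = 0.0363), to 1.94 to 4.89 CPM from 4.32 to 15.6 CPM. Macrophage markers had 13 of 16 negative with a median of -0.48 and none called. Their summed level was 184 to 539 CPM in controls and 225 to 423 CPM in knockouts. Their part in the Irf8, Apoe and interferon values was not tested.

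Acute phase genes, made mainly in liver but also in fat, held 3 called of 10 (30%, against 2.1% of all genes). Of the 10, 9 were positive, and the list was drawn up after values had been seen. Orm3 and Orm1, plasma acid glycoproteins that lie 8.0 kb apart on chromosome 4, rose by 1.26 ± 0.23 SE (adjusted p = 0.0108) and 0.79 ± 0.19 SE (adjusted p = 0.0363). Orm3 was at 8.13, 32.1 and 42.8 CPM in controls and 54.2, 72.8 and 81.0 CPM in knockouts, and neither gene overlapped between groups. These relatives may share reads, so their separate values are uncertain. S100a8, a neutrophil protein, rose by 1.15 ± 0.27 SE (adjusted p = 0.0320) at a level of 1.47 to 11.2 CPM. Angiotensinogen, Agt, rose, with a fold change of 2.498 ± 0.45 SE (adjusted p = 0.0109) at 0.246 to 3.89 CPM in controls and 1.37 to 29.7 CPM in knockouts, with knockout 1 highest. Of 24 fibroblast and matrix markers, the dipeptidase Dpep1 rose (0.90 ± 0.16 SE, adjusted p = 0.0087) and elastin, Eln, fell (-0.85 ± 0.22 SE, adjusted p = 0.0491). Those are 8.33% of the list, against 2.1% of all genes. Eln was tested in columns 7 to 15 alone of the 2 sets. Endothelial markers had 15 of 18 negative (median -0.16) with none called. Neither was any of 5 erythroid and 6 Schwann cell markers.

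How far the 2 sets agree was asked by fitting each alone. Columns 7 to 15 gave 22 called genes of 10209 (0.215%), and columns 1 to 6 gave 9 of 10341 (0.087%). Over the 10021 genes tested in both, the fold changes had the same sign in 63.1%, with a Pearson correlation across genes of 0.40 and a Spearman correlation of 0.37. The libraries of the 2 sets are different, but genes are not independent replicates. Of the 22 genes called in columns 7 to 15, 20 had the same sign in columns 1 to 6, and 15 of them had an unadjusted p below 0.05 there, where 8.88% of all genes did. Of the 9 called in columns 1 to 6, 8 had the same sign in the other set. At an unadjusted p below 0.01 (5.22% of the genes of the larger set) the shares were 446 of 524 (85.1%) from the larger set and 189 of 230 (82.2%) from the smaller. Leaving out 1 library moved the count of 20 to 38 (control 2), 50 (control 9), 49 (knockout 5), 13 (knockout 4) or 12 (control 8), and the share ranged from 84.5% to 100% over the 15 such fits.

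Calls made in both sets alone were few. Pttg1, Wdfy1, Rps3a3, Elovl3 and the predicted gene Gm17067 were called in each, and the last was chosen after its values were seen. Of the 218 genes called over all libraries, 216 were tested in both sets. They have 1 sign in both, which the joint call largely fixes. In 154 of them p was below 0.05 in both sets, in 58 in columns 7 to 15 only and in 4 in columns 1 to 6 only. The joint call, made on the same libraries, favours such small p as well. The larger absolute fold change lay in columns 1 to 6 for 108 and in columns 7 to 15 for 108. An unadjusted interaction p below 0.05 was found for 10 of the 216, and for 5.02% of all genes. Genes called in 1 set that did not share their sign in the other, chosen after their values were seen, were the retinol carrier Rbp4 (1.34 and -0.09), the small RNA Gm24270 (-1.65 and 0.15) in columns 7 to 15 and the interferon-induced GTPase Igtp (-2.41, against 0.26) in columns 1 to 6. Some genes with the same sign differed in size. Nnat, an imprinted gene, had 2.51 in columns 7 to 15 and 0.38 in columns 1 to 6, and S100b, a calcium-binding protein of Schwann and fat cells, had -1.18 and -0.12. Schwann cell markers, 7 of 9 in the table with S100b among them, summed to 522 to 847 CPM in controls and 274 to 459 CPM in knockouts of columns 7 to 15, and to 215 to 325 CPM and 187 to 322 CPM in columns 1 to 6. Their part in the S100b values was not tested.

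**Figure D3:**
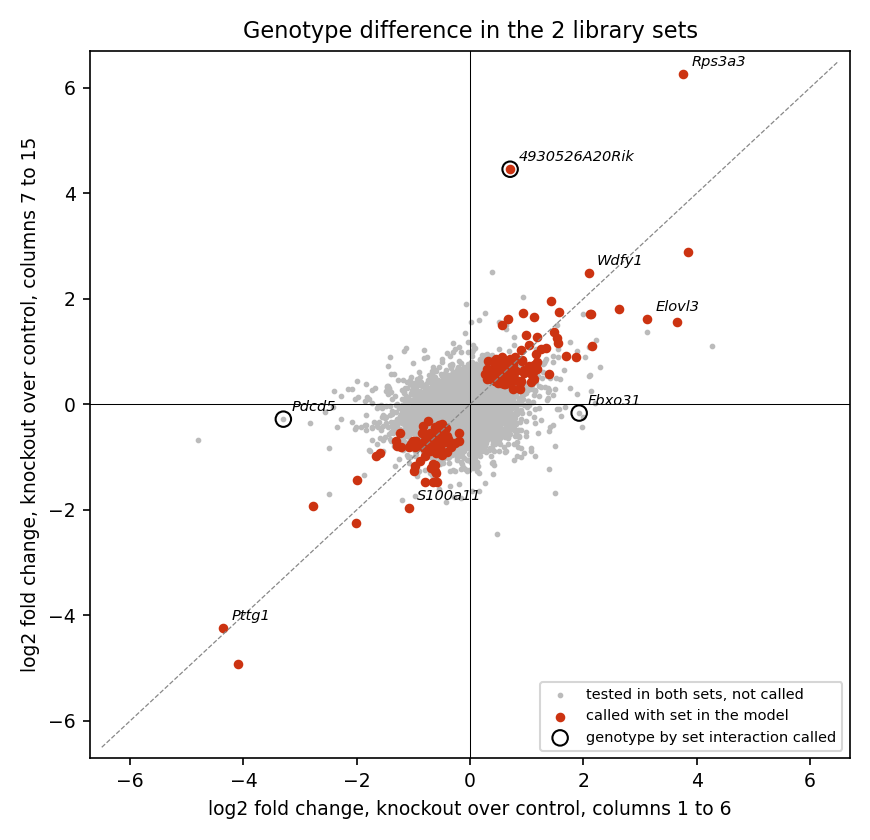
Log2 fold change of knockout over control in columns 1 to 6 (x axis) and columns 7 to 15 (y axis) for 10021 genes; red points were called with the set in the model, rings mark a called interaction of genotype and set, and the dashed line marks equal values. Called genes lie in the lower left and upper right, mostly within 1 of zero, while Pdcd5 and Fbxo31 lie near the x axis.

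The interaction of genotype and set tests the disagreement itself, and it called 3 genes (0.0289%), with 520 (5.02%) at an unadjusted p below 0.05. Pdcd5, a protein linked to cell death (chromosome 7, 35641982 to 35647521), was at 17.2, 21.9, 23.6 and 22.4 CPM in the 4 control libraries and 2.44 and 1.73 CPM in the 2 knockout libraries of columns 1 to 6. In columns 7 to 15 it was at 32.6 to 48.6 CPM in controls and 25.3 to 39.3 CPM in knockouts. The knockout was thus far below control in one set and overlapped it in the other, with fold changes of -3.30 and -0.28 and a difference of 3.01 ± 0.35 SE (adjusted p = 4.62e-04). Fbxo31, a substrate receptor of a ubiquitin ligase, differed by -2.09 ± 0.34 SE (adjusted p = 0.0280). In columns 1 to 6 its knockout libraries stood at 140 and 64.8 CPM above 19.6 to 34.1 CPM in control, and in columns 7 to 15 the groups overlapped. 4930526A20Rik, annotated as a transcribed processed pseudogene within Tcp11 on chromosome 17, differed by 3.75 ± 0.58 SE (adjusted p = 0.0323). It was at 5.57 to 8.15 CPM in controls and 89.5 to 264 CPM in knockouts of columns 7 to 15, and at 18.5 to 28.0 CPM in controls and 18.7 and 54.1 CPM in the knockout libraries of columns 1 to 6. The count of 3 was 1 without knockout 1 or 5 and without control 2, 3, 5, 6, 8 or 9, and 5 without knockout 2. Without knockout 1 the adjusted p was 0.0267 for Pdcd5, 0.975 for Fbxo31 and 0.279 for 4930526A20Rik.

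**Figure D4:**
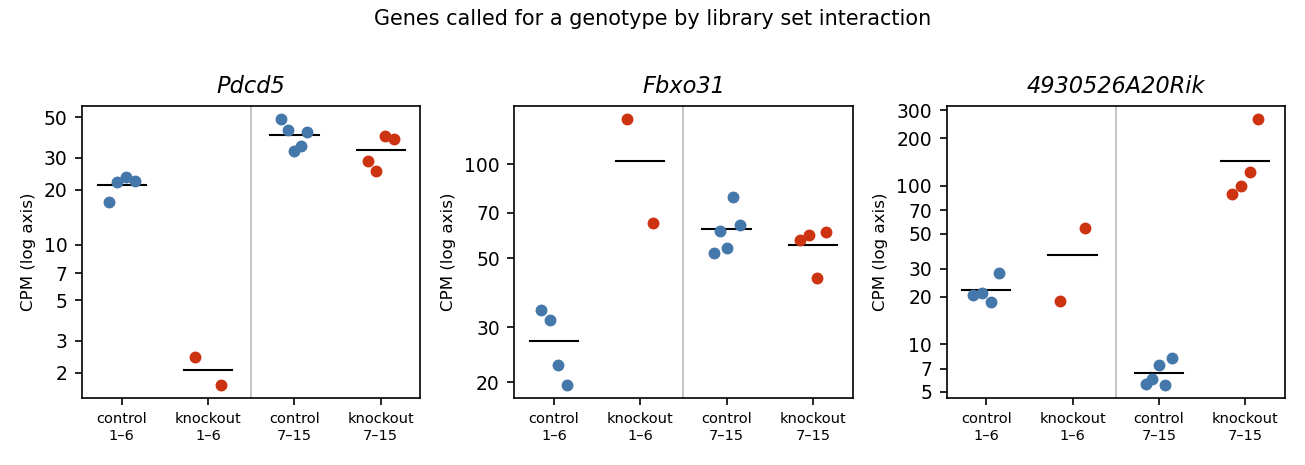
Level of the 3 genes called for the interaction of genotype and set in each library (CPM, log axis); points are libraries, blue for control and red for knockout, and bars are means. Pdcd5 of the knockout lies at 1.73 and 2.44 CPM in columns 1 to 6 only, and 4930526A20Rik separates by genotype in columns 7 to 15.

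The same genes were looked up at 21 weeks, in other libraries. On normal diet 320 of 12082 genes (2.65%) and on high fat diet 14 (0.116%) were called for genotype there. Of the 216 genes called at 4 weeks and tested at 21 weeks, 133 (61.6%) had the same direction on normal diet, where 50.2% of all genes did, and 178 (82.4%) on high fat diet, where 57.4% did. Among fold changes over 1 at 4 weeks the direction was the same in 34 of 42 genes on normal diet and 40 of 42 on high fat diet, and among smaller ones in 99 and 138 of 174. The 2 diets used different control libraries. The skeletal muscle markers had a median fold change of -4.18 on normal and -6.96 on high fat diet at 21 weeks, against -0.46 at 4 weeks. Their part in the 21-week values was not tested. On normal diet 15 genes were called in the same direction and Art3 in the opposite one (-0.65 at 4 weeks, 0.86 at 21 weeks). On high fat diet 7 were called in the same direction and 0 in the opposite one. At an unadjusted p below 0.05, 47 had the same and 17 the opposite direction on normal diet, where 1141 and 1019 of all genes did. On high fat diet these counts were 50 and 0, against 395 and 130 of all genes. Leaving out 1 of the 4-week libraries moved the counts of 133 and 178 to 63 and 79 (knockout 1), 69 and 85 (knockout 4), 82 and 113 (knockout 6), 69 and 96 (control 5), 63 and 82 (control 7) or 51 and 70 (control 8). Their shares ranged from 57.5% to 70.1% and from 75.1% to 89.7% when 1 of those libraries was left out.

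Wdfy1 (2.63 and 2.43), Rps3a3 (6.14 and 5.15) and Akr1c13 (2.27 and 1.73) were called on both diets at 21 weeks. So were, chosen after their values were seen, Eps8l1, an actin regulator (-8.34 and -5.60), and the hydrolase gene Hddc3 (2.05 and 2.01). St6galnac5 was called on high fat diet (2.15) and Ahsa2, Ifi27l2a and Gpi1 on normal diet (0.99, 2.66 and -1.07). Other genes of the 4-week comparison were not called at 21 weeks. Hspb8 had -0.78 (adjusted p = 0.123) on normal and 0.35 (adjusted p = 0.999) on high fat diet, and Elovl3 -0.58 (adjusted p = 0.139) and 0.29 (adjusted p = 0.999). Pttg1 had -3.36 (adjusted p = 0.0670) and -0.55 (adjusted p = 0.999), and its knockout libraries differed among themselves. On normal diet 4 of them were at 2.35, 4.44, 4.45 and 4.73 CPM and 1 at 38.8 CPM, all below the controls at 66.6 to 144 CPM. On high fat diet 2 were at 2.30 and 3.19 CPM and 3 at 79.7, 90.0 and 129 CPM, the latter overlapping the controls at 77.2 to 97.4 CPM. The difference of these fold changes between ages was not tested.

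**Figure D5:**
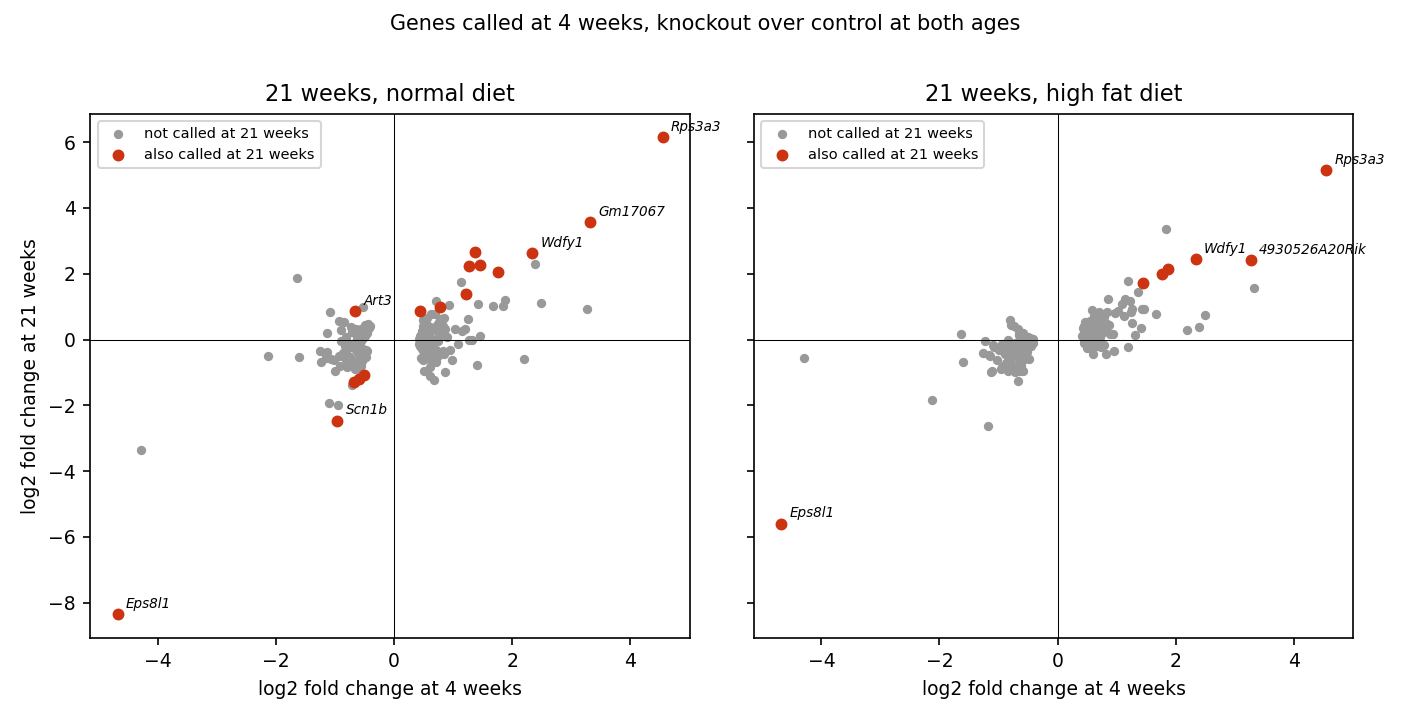
Log2 fold change of knockout over control at 4 weeks (x axis) and at 21 weeks (y axis) on normal and high fat diet for the genes called at 4 weeks; red points were also called at 21 weeks. Rps3a3 and Wdfy1 lie in the upper right and Eps8l1 in the lower left on both diets, while the many fold changes below 1 scatter around 0 on normal diet.

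The called genes were spread over the genome. Of the 218, 217 were placed on GRCm38, and their share per nuclear chromosome ran from 1.2% to 3.36% of the genes tested, against 2.1% of all genes. Within 10 Mb of Suv420h1 (Kmt5b, chromosome 19, 3767421 to 3818303), 2 of 170 tested genes were called (1.18%), and within 10 Mb of Suv420h2 (Kmt5c, chromosome 7, 4740115 to 4747514) 2 of 55 (3.64%). For Suv420h1 the share was 3.12% within 1 Mb and 1.03% within 20 Mb, and for Suv420h2 4.0% and 3.39%. These shares rest on few called genes and were not tested. One of the 2 within 10 Mb of Suv420h2 is Eps8l1 (chromosome 7, 4460674 to 4480487), which lies 0.26 Mb from Suv420h2. It fell by 4.68 (adjusted p = 2.37e-04), from 2.19, 5.88 and 14.6 CPM in control to 0, 0.279 and 0.864 CPM in knockouts. The groups did not overlap. Pairs of called genes within 500 kb of each other numbered 26, of which 15 moved in the same direction. Neither count was set against pairs of all tested genes, so neither can be read as an excess. Among the pairs, chosen after their values were seen, Acads, Pop5, Rnf10 and Triap1 lie in a row on chromosome 5. All of them rose (0.61, 0.54, 0.43 and 0.51). Pop5 and Rnf10 overlap on opposite strands and may share reads. Uqcr11 and Tcf3, 2.7 kb apart on chromosome 10, moved in opposite directions (0.41 and -0.64).

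The authors' deposited table for this experiment holds 461 genes at an adjusted p below 0.05 (4.3% of 10731), 293 higher and 168 lower in the knockout. It shares 208 of the 218 genes called here, which are 95.4% of these and 45.1% of the 461 called in the authors' deposited table. All 218 have the same direction in the authors' deposited table, which rests on the same libraries.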

How the data were processed

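The 3′ tag counts per gene were deposited by the authors as whole numbers, and per the submitters' processing notes STAR 2.5.3a, featureCounts, limma and the mouse builds mm10/GRCm38 were used. The strand setting of the counting is not stated there. The authors' deposited table gives log2 fold changes and adjusted p-values, and no model is named in its header. Counts of 15 libraries (3069035 to 8140213 each) were tested with edgeR 4.0.16 in R 4.3.3: TMM scaling, filterByExpr with a minimum count of 10, and a robust quasi-likelihood fit with library set and genotype. Benjamini-Hochberg adjustment ran over all 10366 genes tested, and every adjusted p in the text is from this test unless another is named. The 21-week libraries were fitted in the same way with 1 term per group. CPM were scaled to the TMM-adjusted library total, except for Xist, which was scaled to the raw total. Scripts were tested on simulated data.

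Genes were named by a rule: 6 core genes, the 12 called genes per direction with the smallest adjusted p, the 10 most abundant per direction with an absolute log2 fold change of at most 1, up to 4 called members per list and up to 5 for the interaction. A mean of 5 CPM or more and an established symbol were asked of the genes named by p or by level, not of list members or interaction genes. Members and lists were chosen with earlier results of these data known. No pair of replicates agreed within sampling noise (chi-square per gene of at least 5.19). Alternatives were other scaling, no filter, DESeq2 1.42.0, limma-voom 3.58.1, other covariates, libraries left out and each set alone. Positions are from GENCODE on GRCm38 and promoter windows from RefSeq. One result is not reported here.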

Additional observations from a re-analysis of the deposited data

Results flagged for a closer look

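In 18 of 178 groups of values tested, 1 library lay far from the rest of its group, where chance gives about 1 in 20. The groups pool both library sets, whose levels differ, and the chance value takes no account of that. Knockout 1 was that library 6 times. It was highest for Tpp1 (58.2 CPM, next 32.3), Hsd17b10 (222.3 CPM, next 127), Ifi27l2a (671.9 CPM, next 289), Agt (29.71 CPM, next 6.91), Gfpt2 (15.54 CPM, next 9.59) and Fbxo31 (139.7 CPM, next 64.8). Control 1, the library with the lowest total, was highest for Pparg (196.4 CPM, next 41.7) and Zbtb4 (36.59 CPM, next 25.2) and lowest for Psma7 (119.5 CPM, next 181) and Pmm1 (50.67 CPM, next 117). Control 4 was highest for Map1lc3b (273.2 CPM, next 229), Agt (3.887 CPM, next 1.88) and Gfpt2 (9.655 CPM, next 6.88). Knockout 5 was highest for Ucp1 (17580 CPM, next 9414) and Dpep1 (147.1 CPM, next 88.5). Control 2 was highest for Lep (45.65 CPM, next 18.6), control 5 for Psme1 (56.24 CPM, next 48.5) and knockout 2 for Hyou1 (28.21 CPM, next 17.2).

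For 3 genes the effect of genotype differed between the library sets by the interaction test of edgeR. The log2 fold change in columns 7 to 15 minus that in columns 1 to 6 was 3.01 for Pdcd5 (adjusted p = 4.62e-04), -2.09 for Fbxo31 (adjusted p = 0.0280) and 3.75 for 4930526A20Rik (adjusted p = 0.0323).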

How the results depend on the processing

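Values follow the order of 5 counts: genes called for genotype (218), for the interaction (3), called in columns 7 to 15 with the same sign in columns 1 to 6 (20), and called at 4 weeks with the same direction at 21 weeks on normal (133) and high fat diet (178). DESeq2 gave 583, 5, 210, 316 and 434, and all 218 genes were among its calls. For the first and the last 2 counts, labelled sex in place of the set gave 86, 65 and 76, no covariate 16, 15 and 15, leaving out control 6 and knockout 2 together 87, 63 and 78, columns 7 to 15 alone 22, 18 and 20, and columns 1 to 6 alone 9, 8 and 9. Set and labelled sex together gave 144 genes, an adjusted p below 0.01 gave 30, and an unadjusted p below 0.01 in the larger set, chosen after seeing the data, moved the count of 20 to 446. RLE size factors, no filter on low counts, mitochondrial genes left out and limma-voom gave first counts of 209, 205, 216 and 198. Leaving out 1 library at 4 weeks gave 81 to 276, 1 to 5, 12 to 50, 51 to 158 and 70 to 206. Of 80 named genes called for genotype, 35 were called in every fit with 1 library left out and 45 were not, 2 were called in every other alternative, and 0 reversed. Ppargc1a (0.60) was -0.26 in columns 1 to 6 alone, Lep (-0.29) ranged from -0.68 to 0.31, the latter without control 2, and Ucp1 (0.16) from -0.0596 without knockout 5 to 0.27 when 1 library was left out. The cause of these moves was not tested. With the replicate block beside the set, 7 genes were called, and 7 and 7 had the same direction at 21 weeks. Same-numbered libraries did not deviate together (correlations -0.029 to 0.144, none best with its own number). So few correlations cannot decide whether the numbers pair the libraries, and numbers 2, 4, 5 and 6 join libraries of different sets.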
